A study of Homo sapiens with 15 samples.

Results

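A549 cells held in hypoxia with the compound BB2-282 were compared with A549 cells kept in normoxia with vehicle, to describe which transcripts stayed above or below their normoxic level in the presence of the compound, and which sat at that level or past it. The comparison used the 3 arrays labelled hypoxic with BB2-282 and the 3 labelled normoxic with vehicle, 6 of the 15 arrays in the series. A549 is an established human lung adenocarcinoma line, so the replicates of a group are cultures of a single line. The labels call them biological replicates and do not describe separate thawings or passages, so each p-value reflects only how far these cultures spread, which may be technical. Every culture was plated at 150000 cells per mL and contained 0.1% DMSO, the vehicle. The BB2-282 cultures received 10 µM of the compound 6 h before a gas-generating pouch made them hypoxic for a further 42 h. BB2-282 is known here by its code name, and the series text groups it with transcriptional inhibitors. The 3 hypoxic vehicle arrays, with DMSO alone through the same hypoxia, were used to show where hypoxia alone had placed each gene. The arrays of BB2-125 and BB2-162, compounds given at the same dose and time in hypoxia, were used for direct comparisons with BB2-282 and also entered the single model, so they share in the estimate of spread behind every p-value and interval. No array of BB2-282 in normoxia was analysed here, so an action on the hypoxic response and an action of the compound on cells at any oxygen level cannot be told apart.

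Hypoxia-inducible factor (HIF) is the main transcription factor of the response to low oxygen. Its alpha subunit, HIF1A or EPAS1, is hydroxylated when oxygen is plentiful by prolyl hydroxylases of the EGLN family and by HIF1AN. The first mark leads to breakdown through VHL, and the second blocks contact with the coactivators EP300 and CREBBP. When oxygen is scarce the alpha subunit joins ARNT, binds DNA at the core ACGTG or GCGTG, and recruits these coactivators to genes of glycolysis, blood vessel growth, matrix modification and pH control. The arrays measured RNA, so the amounts of these proteins are not known from them.

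Intensities were compared as log2 values, on which a difference of 1 is a 2-fold change. Median intensity was 74.91 to 80.74 on the 6 arrays. Correlations between arrays over the genes tested were 0.9932 to 0.9950 within BB2-282 and 0.9915 to 0.9943 within normoxic vehicle. Between these groups they were 0.8436 to 0.8612. BB2-282 arrays correlated at 0.9735 to 0.9851 with hypoxic vehicle arrays. The root mean square deviation of an array from its group mean was 0.094 to 0.133 for the 6 arrays. It reached 0.221 for BB2-162 replicate 1, which enters the shared estimate of the spread. The median standard error of a difference was 0.12 with 3 arrays in a group, which sets the precision.

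With BB2-282 in hypoxia, 10372 of 16005 genes tested differed from normoxia at an adjusted p under 0.05 in limma, a background of 64.8%. Of these, 5346 were higher (33.4%) and 5026 were lower (31.4%). Changes of at least 2-fold leaned to loss, with 987 genes higher and 2224 lower. The arrays of both groups did not overlap for 11902 genes (74.4%). The median over all genes tested was 0.11 on the log2 scale. A gene list with a similar share of called members does not stand apart from this background. Hypoxia alone had moved 9207 genes from normoxia (57.5%), 4508 upwards (28.2%) and 4699 downwards (29.4%). This comparison and the one with BB2-282 share the normoxic arrays, so they are not independent of each other.

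Most genes that hypoxia had raised were still above normoxia when BB2-282 was present, and most that it had lowered were still below. Of the 4508 raised genes, 3815 were called higher than normoxia with BB2-282 (84.6%), and of the 4699 lowered genes, 4342 were called lower (92.4%). Among the others, 764 were not called and had a 95% confidence interval inside 0.5 log2 units of normoxia on either side. A further 260 were not called and had an interval too wide to place them, and 26 were called on the opposite side of normoxia. Genes that hypoxia alone had changed at least 2-fold were the clearest case. Of 835 such raised genes, 822 stayed above normoxia (98.4%), and of 1897 such lowered genes, 1895 stayed below (99.9%). The median of the raised genes was 1.39 above normoxia in hypoxia alone and 1.47 with BB2-282. The median of the lowered genes was −1.48 in hypoxia alone and −1.61 with BB2-282.

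BB2-282 was also tested directly against the hypoxic vehicle, where 2176 genes differed (13.6%), 905 higher (5.65%) and 1271 lower (7.94%). Of these, 157 differed at least 2-fold, 64 higher and 93 lower. The count fell to 1255 without BB2-282 replicate 2, to 1219 without hypoxic vehicle replicate 1 and to 1351 without its replicate 2. Among the 835 genes raised at least 2-fold by hypoxia, 135 lay further above normoxia with BB2-282 and 125 lay partly back towards it. The other 562 that stayed above normoxia were not called against the hypoxic vehicle. Among the 1897 lowered genes, 263 lay further below normoxia, 96 lay partly back, and 1536 below normoxia were not called against the hypoxic vehicle.

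**Figure D1:**
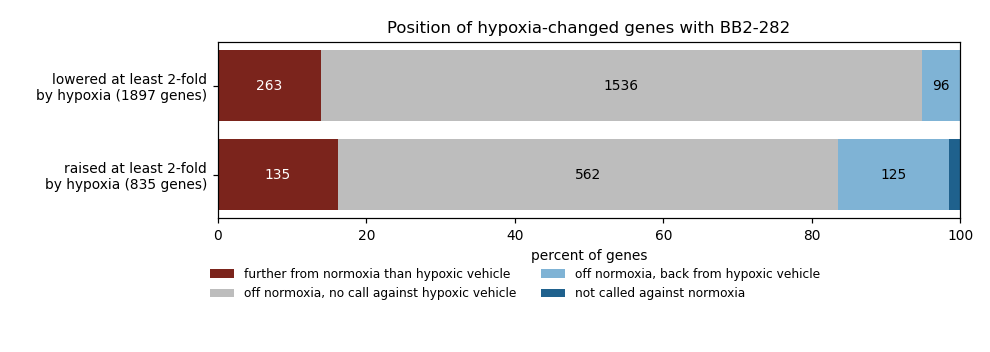
Position with BB2-282 of the genes that hypoxia alone changed at least 2-fold, as a percent of the 1897 lowered and of the 835 raised genes (horizontal axis), with gene counts in the bars. Most of each bar is off normoxia without a call against the hypoxic vehicle (1536 and 562 genes), and 13 raised and 2 lowered genes were not called against normoxia.

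HIF binds DNA at short core words, so promoters of genes with large rises are shown for the words they hold. Of the 12 largest rises, 5 had a promoter entry, and 3 of the 4 that held a core are shown. TNFAIP3, the fourth, held 2 cores that overlap on opposite strands, and CDCP1 held 0. LOX encodes lysyl oxidase, which crosslinks collagen and elastin, ANGPTL4 encodes a secreted inhibitor of lipoprotein lipase, and ALDOC encodes an aldolase of glycolysis. The sequences are the 250 bases before each RefSeq start on GRCh38.p14, written 5′ to 3′ on the gene's strand, with every ACGTG or GCGTG on either strand in capitals. LOX lies at chr5:122078260-122078509 on the minus strand, ANGPTL4 at chr19:8363905-8364154 on the plus strand and ALDOC at chr17:28576896-28577145 on the minus strand.
LOX: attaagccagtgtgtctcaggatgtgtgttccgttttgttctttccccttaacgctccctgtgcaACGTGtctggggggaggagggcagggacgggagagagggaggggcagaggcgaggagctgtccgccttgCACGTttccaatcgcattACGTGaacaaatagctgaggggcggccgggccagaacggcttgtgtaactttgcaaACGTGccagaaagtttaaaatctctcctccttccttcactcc
ANGPTL4: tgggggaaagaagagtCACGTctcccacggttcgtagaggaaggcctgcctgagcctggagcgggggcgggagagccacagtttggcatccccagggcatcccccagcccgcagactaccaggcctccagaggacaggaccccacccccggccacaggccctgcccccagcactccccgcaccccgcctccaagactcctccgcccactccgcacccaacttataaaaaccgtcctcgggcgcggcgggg
ALDOC: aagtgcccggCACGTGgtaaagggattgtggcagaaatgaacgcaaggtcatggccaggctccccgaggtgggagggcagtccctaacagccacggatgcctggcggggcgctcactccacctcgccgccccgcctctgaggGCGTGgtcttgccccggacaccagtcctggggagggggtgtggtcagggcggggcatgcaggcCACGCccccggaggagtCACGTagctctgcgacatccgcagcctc
The LOX window held 4 cores, at 185, 116, 98 and 42 bases before the start, ANGPTL4 held 1, and ALDOC held 5, of which 2 overlap on opposite strands. The word is common, since 11763 of 27305 promoters in the table held at least 1 (43.1%), as did 53.5% of the promoters matched to genes tested. On the HIF target lists, 21 of the 31 members with a promoter entry held one. The share was 392 of 696 among genes higher by at least 2-fold (56.3%) and 1066 of 1866 among genes lower by at least 2-fold (57.1%). Among the 12 largest rises 4 of 5 with an entry held a core, and among the 12 largest falls 1 of 9. A match is a description of the letters and not a bound site.

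Most HIF target genes that encode secreted and signalling proteins had RNA levels above normoxia. Of 19 tested members of this list, 14 were higher, 2 lower and 3 not called, against a background of 33.4% higher and 31.4% lower, with a median of 1.29 with BB2-282 and 1.16 in hypoxia alone. VEGFA, the main growth factor of blood vessels, read 7.80, 7.84 and 7.63 on the normoxic arrays, 11.28, 11.54 and 11.43 on the hypoxic vehicle arrays and 11.52, 11.57 and 11.55 with BB2-282. All BB2-282 arrays lay above all normoxic arrays. The difference from normoxia was 3.79 ± 0.11 (SE, 3 arrays a group; 13.8-fold, adjusted p = 5.14e-15). Against the hypoxic vehicle VEGFA was not called, at 0.13 with a 95% interval of −0.10 to 0.36. ANGPTL4 read 6.66, 6.60 and 6.39 in normoxia and 11.29, 11.12 and 11.55 with BB2-282, a rise of 4.77 ± 0.16 (27.3-fold, adjusted p = 2.27e-14). In hypoxia alone it had risen by 5.08. STC2, a stanniocalcin, and ADM, the vasodilator adrenomedullin, were higher by 3.84 and 3.45.

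PDGFB, a growth factor for pericytes and fibroblasts, went further than in hypoxia alone. It read 6.41, 6.47 and 6.52 in normoxia, 8.18, 8.29 and 8.46 in hypoxic vehicle and 9.62, 9.84 and 9.64 with BB2-282. The 3 groups did not overlap, and the step from hypoxic vehicle to BB2-282 was 1.39 ± 0.10 (adjusted p = 1.05e-07). The lower members were CCN2, a matricellular signalling protein (−0.46), and EDN1, the vasoconstrictor endothelin (−0.53). CCN2 had been at −0.96 in hypoxia alone and rose by 0.49 with the compound (adjusted p = 0.00201), whereas EDN1 was at 0.14 in hypoxia alone and fell by 0.67 (adjusted p = 0.00153).

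Receptors, transporters and stress proteins among HIF targets gave the same direction. Of 20 tested, 17 were higher than normoxia, 1 was lower and 2 were not called, and the median was 1.66 with BB2-282 and 1.79 in hypoxia alone. CXCR4, the receptor of the chemokine CXCL12, read 5.92, 5.55 and 5.94 in normoxia and 9.16, 9.08 and 9.10 with BB2-282, higher by 3.31 ± 0.13 (9.90-fold, adjusted p = 3.09e-13). NDRG1, a stress protein strongly induced by low oxygen, read 8.99, 9.01 and 8.86 in normoxia and 13.08, 13.09 and 13.18 with BB2-282, higher by 4.16 ± 0.09 (17.9-fold). Its difference from the hypoxic vehicle was 0.02, with a 95% interval of −0.18 to 0.22. The lipid droplet proteins PLIN2 and HILPDA were both 3.58 higher than normoxia. TFRC, the transferrin receptor, was the lower member. It read 10.14, 10.23 and 10.23 in normoxia, 9.30, 9.40 and 9.34 in hypoxic vehicle and 8.47, 8.47 and 8.40 with BB2-282, and the groups did not overlap. MET, the receptor of hepatocyte growth factor, was not called at 0.29 ± 0.19 (adjusted p = 0.194), with a 95% interval of −0.12 to 0.69. It was called with quantile normalization (adjusted p = 0.0349) and when only the normoxic and BB2-282 groups were fitted (adjusted p = 0.0283).

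Genes of glycolysis and glucose uptake were more often higher than lower. Of 29 tested, 16 were higher, 6 lower and 7 not called, with a median of 0.42. SLC2A1, the main glucose transporter, read 10.78, 10.81 and 10.83 in normoxia and 12.88, 12.80 and 12.99 with BB2-282, higher by 2.09 ± 0.11 (4.24-fold, adjusted p = 8.14e-12). ALDOC read 7.07, 6.92 and 7.07 in normoxia and 11.03, 11.11 and 11.14 with BB2-282, higher by 4.08 ± 0.14 (16.9-fold). The transporter SLC2A3 was higher by 3.57, and ENO2, an enolase, by 3.21. PDK4 and PDK2, kinases that switch off pyruvate dehydrogenase, went the other way. PDK4 read 11.17, 11.40 and 11.30 in normoxia, 7.23, 7.16 and 6.56 in hypoxic vehicle and 6.23, 6.04 and 5.90 with BB2-282, lower than normoxia by 37.7-fold and lower than hypoxic vehicle by 0.93 (adjusted p = 0.000341). PDK2 was at −2.74.

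The HIF machinery itself was split, with 8 of 17 tested members higher, 6 lower and 3 not called. HIF1A transcript read 11.59, 11.80 and 11.83 in normoxia and 9.54, 9.50 and 9.63 with BB2-282, 4.54-fold lower (−2.18 ± 0.15, adjusted p = 5.05e-10). EPAS1, which encodes the other alpha subunit, read 11.03, 11.16 and 11.12 in normoxia and 12.19, 12.19 and 12.31 with BB2-282, 2.18-fold higher. The groups did not overlap for either gene. Differences from the hypoxic vehicle were −0.08 for HIF1A (95% interval −0.40 to 0.25) and −0.09 for EPAS1 (−0.34 to 0.17), neither of them called. CITED2, which competes with HIF for its coactivators, was higher by 1.72, and SIAH2, a ubiquitin ligase that acts on EGLN proteins, by 1.25. ARNT was higher by 0.37 (adjusted p = 0.00584), and the asparaginyl hydroxylase HIF1AN was at −0.79. CREBBP was higher by 0.52 ± 0.17 (adjusted p = 0.0115) and EP300 by 0.46 ± 0.19 (adjusted p = 0.0398). The EP300 call was lost with median centring (adjusted p = 0.0946), without normoxic vehicle replicate 1 (0.225) and without BB2-282 replicates 2 (0.0827) or 3 (0.12). The CREBBP call was lost without normoxic vehicle replicate 1 (adjusted p = 0.0725).

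EGLN3, an oxygen-sensing prolyl hydroxylase and itself a HIF target, moved part of the way back. It read 8.16, 8.23 and 8.22 in normoxia, 10.43, 10.71 and 10.24 in hypoxic vehicle and 9.36, 9.29 and 9.41 with BB2-282. The 3 groups did not overlap. Its distance from normoxia was 2.25 ± 0.12 in hypoxia alone and 1.15 ± 0.12 with BB2-282 (2.21-fold, adjusted p = 1.46e-07), and relative to the hypoxic vehicle it fell by 1.11 ± 0.12 (adjusted p = 1.11e-05). EGLN3 was the only one of the 17 HIF pathway genes called against the hypoxic vehicle, beside 13.6% of all genes tested.

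**Figure D2:**
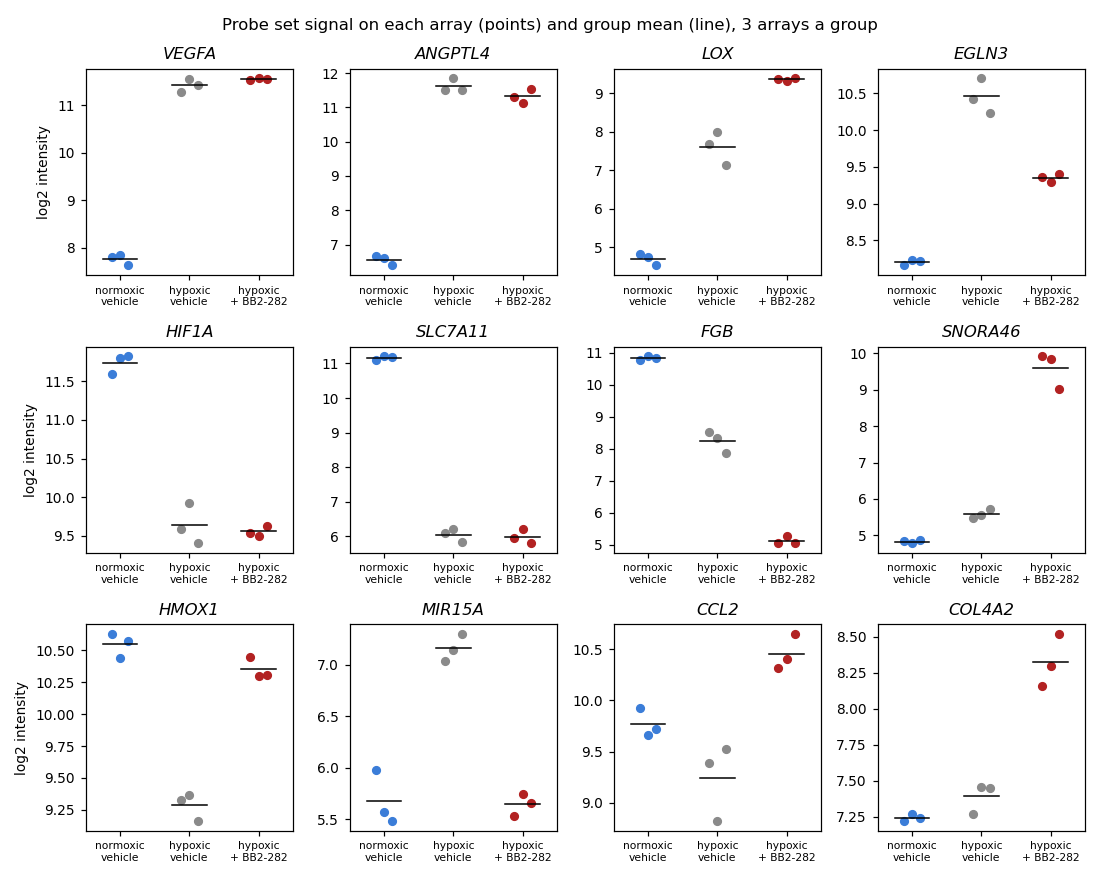
Log2 intensity (vertical axis) of 12 genes on each of the 3 normoxic vehicle, 3 hypoxic vehicle and 3 BB2-282 arrays, with a line at each group mean; the vertical axes differ between panels and do not start at 0. VEGFA, ANGPTL4, HIF1A and SLC7A11 with BB2-282 sit beside hypoxic vehicle, LOX, FGB and SNORA46 lie further from normoxia, EGLN3 lies between, and HMOX1 and MIR15A overlap normoxia.

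Many genes that build and crosslink the extracellular matrix stood above normoxia, some of them higher than in hypoxia alone. Of 23 tested, 15 were higher than normoxia, 2 lower and 6 not called, with a median of 0.48 with BB2-282 and 0.15 in hypoxia alone. Against the hypoxic vehicle 10 of the 23 were higher and 1 lower, beside a background of 5.65% higher and 7.94% lower. LOX read 4.82, 4.75 and 4.53 in normoxia, 7.68, 7.99 and 7.14 in hypoxic vehicle and 9.36, 9.33 and 9.40 with BB2-282. No group overlapped another. LOX was 25.4-fold higher than normoxia (4.67 ± 0.16, adjusted p = 2.46e-14) and 1.76 ± 0.16 above the hypoxic vehicle (adjusted p = 1.01e-06). Its normoxic readings lay near 4.60, the 25th percentile of all probe sets there, so the rise starts from a reading close to that percentile. LOXL2, a related crosslinking enzyme, read 8.02, 8.03 and 8.23 in normoxia and 12.17, 12.15 and 12.25 with BB2-282, higher by 4.09 ± 0.11 (17.1-fold) and 0.45 above the hypoxic vehicle (adjusted p = 0.0117). The collagen prolyl hydroxylase P4HA2 was higher by 2.64 and the anchoring collagen COL7A1 by 1.64. FN1, fibronectin (−0.74), and PLOD1, a lysyl hydroxylase of collagen (−0.82), were the lower members.

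Inflammatory genes under NF-kB were mostly higher. Of 25 tested, 21 were higher, 3 lower and 1 not called, and the median was 1.45 with BB2-282 against 1.03 in hypoxia alone. Against the hypoxic vehicle 11 were higher and 2 lower, beside a background of 5.65% higher and 7.94% lower. ICAM1, the leukocyte adhesion molecule, read 6.10, 5.99 and 6.05 in normoxia, 6.86, 7.14 and 7.22 in hypoxic vehicle and 8.77, 8.90 and 8.92 with BB2-282. The groups were apart, and the step added in the presence of BB2-282 was 1.79 ± 0.10 (adjusted p = 5.2e-09), beside 1.03 for hypoxia itself. TNFAIP3, which restrains NF-kB signalling, was higher than normoxia by 4.55 and the cytokine LIF by 3.02. CCL20, a chemokine for lymphocytes, went part of the way back. It read 4.47, 4.56 and 4.16 in normoxia, where its mean lay at or below the 25th percentile of probe sets, then 9.38, 9.17 and 9.34 in hypoxic vehicle and 8.06, 8.15 and 8.18 with BB2-282. Counted from that percentile its rise was at least 3.53 with BB2-282, and its difference from the hypoxic vehicle was −1.17 ± 0.11 (adjusted p = 3.36e-06). CXCL5 was at −1.32 and PTGS2, an inducible cyclooxygenase, at −0.78.

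Further genes with large rises encode surface and signalling proteins. CDCP1, a membrane protein of tumour cells, read 6.28, 6.11 and 6.41 in normoxia and 10.87, 10.88 and 10.95 with BB2-282, higher by 4.63 ± 0.09 (24.8-fold) and 0.51 above the hypoxic vehicle (adjusted p = 0.00121). The transcription factor ETS1 was higher by 3.95. ITGA5, the fibronectin-binding integrin subunit, read 7.79, 8.16 and 8.04 in normoxia, 9.96, 10.31 and 10.10 in hypoxic vehicle and 11.02, 11.02 and 11.18 with BB2-282. All 3 ITGA5 groups were apart, and the step from hypoxic vehicle was 0.95 ± 0.17 (adjusted p = 0.00108). ITGA5 belongs to the list of TGF-beta response and mesenchymal genes, of which 13 of 23 were higher than normoxia and 6 lower. Against the hypoxic vehicle 9 of that list were higher and 0 lower, beside a background of 5.65% higher and 7.94% lower. VIM, vimentin, was higher than normoxia by 1.56 and SMAD3, a TGF-beta signal carrier, by 2.39, while TGFBR2, a TGF-beta receptor, was at −2.38. ULK1, the kinase that starts autophagy, was higher by 1.86 ± 0.12 and 1.05 above the hypoxic vehicle. On the mitophagy and autophagy list 8 of 15 were higher and 5 lower, with BECN1 at −1.39.

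Stress and feedback lists leaned upwards, beside a background of 33.4% higher and 31.4% lower over all genes tested. Immediate-early and feedback genes were higher in 17 of 24 and lower in 4, with JUN at 3.58 and the MAP kinase phosphatase DUSP5 at 2.83. ATF4 targets were higher in 21 of 31 and lower in 5, with DDIT3 at 2.92 and PSPH, an enzyme of serine synthesis, at −2.74. Targets of p53 were higher in 16 of 24 and lower in 3, with the cell-cycle inhibitor CDKN1A at 1.81 and TIGAR at −1.63. Metallothioneins and zinc-response genes were higher in 8 of 10, with MT1X at 3.51, while the zinc exporter SLC30A1 was at −0.90. Jumonji demethylases, which need oxygen as a substrate, were higher in 8 of 15 and lower in 2, with KDM3A at 2.53 and KDM7A at 3.48. The share of this list called in either direction was 66.7%, close to the 64.8% of all genes tested. EGF receptor ligands and receptor kinases were higher in 8 of 14 and lower in 2, with EPHA2 at 1.62 and ERBB3 at −1.79. The metallothioneins share much of their sequence, so the split of signal among them is uncertain.

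DNA replication and mitosis genes stayed low with BB2-282. All 32 replication genes tested were called, 31 lower and 1 higher, with a median of −1.57, against −1.47 in hypoxia alone. The 31 mitosis genes were called too, 30 lower and 1 higher, with a median of −1.63, against −1.77 in hypoxia alone. Set against hypoxic vehicle, 6 of the 31 were higher and 0 lower, with a median of 0.16 and a background of 5.65% higher, among them the mitotic kinase AURKB and the transcription factor FOXM1. Of the 32 replication genes, 2 were higher and 4 lower than in hypoxic vehicle, beside a background of 5.65% higher and 7.94% lower. CDC6, which loads the replicative helicase, read 9.01, 9.27 and 9.03 in normoxia and 4.70, 5.07 and 5.10 with BB2-282, 17.7-fold lower (−4.14 ± 0.15, adjusted p = 6.58e-14). CDK1, the mitotic kinase, read 8.43, 8.53 and 8.34 in normoxia and 5.23, 5.02 and 5.15 with BB2-282, 9.86-fold lower. Neither gene was called against the hypoxic vehicle. PCNA, the sliding clamp of DNA polymerase, was among the 4. It read 10.88, 10.82 and 10.64 in normoxia, 8.93, 8.66 and 8.66 in hypoxic vehicle and 7.81, 7.79 and 7.62 with BB2-282, a step of −1.01 ± 0.11 from hypoxic vehicle (adjusted p = 1.41e-05). CDT1, a licensing factor, was the higher replication gene at 0.81 ± 0.11, and UBE2C, a ubiquitin-conjugating enzyme of mitosis, the higher mitosis gene at 0.47. In RNA from whole cultures, fewer cycling cells and less RNA of these genes per cell cannot be told apart.

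Other lists of growth and division were mostly lower, apart from the cyclin D and cytosolic ribosomal protein lists, which were split. Replication-dependent histones were lower in 20 of 22 and higher in 0, with H2BC14 at −4.14. Their sequences are near-identical, so the single genes are uncertain. Cohesion and DNA repair genes were lower in 10 of 15. ESCO2, a cohesin acetyltransferase, had a BB2-282 mean at or below the 25th percentile of probe sets, and counted from there its difference from normoxia was −3.46 or lower. Ribosome biogenesis genes were lower in 19 of 25 and higher in 2, with POLR1A, the large subunit of RNA polymerase I, at −2.09. Among cyclins D, their kinases and CDK inhibitors, 5 of 9 were higher and 3 lower, with a median of 0.43, and the lower ones included CCND3 at −2.71 and CDK4 at −1.34. Cytosolic ribosomal proteins were higher in 8 of 19, lower in 3 and not called in 8, with a median of 0.25. Of the 19, 7 were lower than in hypoxic vehicle and 0 higher, beside a background of 7.94% lower and 5.65% higher.

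Detoxification genes of the NRF2 programme had the lowest median of the 38 lists. A549 is known to carry a mutation of KEAP1, the repressor of NRF2, and to keep this programme on. Of 23 tested, 21 were lower, 1 was higher and 1 was not called, and the median was −2.04 with BB2-282 and −1.63 in hypoxia alone. SLC7A11, the cystine transporter that feeds glutathione synthesis, read 11.09, 11.22 and 11.18 in normoxia, 6.09, 6.23 and 5.84 in hypoxic vehicle and 5.96, 6.21 and 5.80 with BB2-282. It was 36.0-fold below normoxia (−5.17 ± 0.14, adjusted p = 2.73e-15), and its difference from the hypoxic vehicle was −0.06 (95% interval −0.36 to 0.24). NQO1, a quinone reductase, read 12.53, 12.67 and 12.53 in normoxia and 9.99, 9.96 and 9.80 with BB2-282, 6.32-fold lower. TKT, transketolase, was the higher member at 0.36. SLC40A1, the iron exporter ferroportin, read 9.83, 9.81 and 9.71 in normoxia and averaged 4.90 ± 0.10 (SD, n = 3) with BB2-282, 29.5-fold lower. Its list of iron transport and sensing genes was lower in 7 of 12 and higher in 3, with the mitochondrial iron importer SLC25A37 at 3.01. Among the aryl hydrocarbon receptor and its targets 3 of 8 were higher and 4 lower, with CYP1B1 at −1.98.

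The 12 largest falls included genes that fell below their hypoxic level. FGB, which encodes a fibrinogen chain, read 10.78, 10.91 and 10.83 in normoxia, 8.52, 8.33 and 7.88 in hypoxic vehicle and 5.05, 5.29 and 5.07 with BB2-282. The 3 groups were apart. FGB was 52.2-fold below normoxia (−5.70 ± 0.17, adjusted p = 6.81e-15) and at −3.10 ± 0.17 from the hypoxic vehicle (adjusted p = 3.51e-09). TM4SF20, a tetraspanin-like membrane protein, averaged 12.02 ± 0.02 (SD, n = 3) in normoxia and read 8.04, 8.35 and 7.24 in hypoxic vehicle and 6.12, 5.66 and 5.77 with BB2-282, 71.8-fold below normoxia and apart from both other groups. CST1, a secreted inhibitor of cysteine proteases, read 12.18, 11.85 and 11.86 in normoxia, 9.86, 9.83 and 9.51 in hypoxic vehicle and 7.44, 7.37 and 7.61 with BB2-282. All 3 CST1 groups were apart. Its further step was −2.25 ± 0.16 (adjusted p = 7.73e-08), beside −2.23 for hypoxia alone. INSL4, a relaxin-family hormone, read 11.10, 10.76 and 10.69 in normoxia and 5.59, 5.89 and 5.39 with BB2-282, 37.5-fold lower. SLPI, a secreted protease inhibitor of airway epithelium, was named through its lineage list, at −2.90 ± 0.16 from normoxia and −1.13 from the hypoxic vehicle (adjusted p = 0.000102). TM4SF4 was at −5.12, the urea-cycle enzyme CPS1 at −5.07, HGD of tyrosine breakdown at −4.73, ARHGAP18 at −4.59 and the prostaglandin-degrading HPGD at −4.50.

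Genes of mitochondrial respiration were mostly lower than normoxia, and part of them lower than in hypoxia alone. Of 23 respiratory chain genes, 18 were lower than normoxia and 1 was higher, and the median was −0.72 against −0.29 in hypoxia alone. Against the hypoxic vehicle 10 of the 23 were lower and 0 higher, beside a background of 7.94% lower and 5.65% higher. CYCS, cytochrome c, read 9.33, 9.59 and 9.31 in normoxia, 8.48, 8.35 and 8.29 in hypoxic vehicle and 7.15, 7.05 and 7.16 with BB2-282. The 3 groups were apart, and the further step was −1.25 ± 0.10 (adjusted p = 4.17e-07). The higher member was COX4I2, the cytochrome oxidase subunit used in low oxygen, at 0.32. Its call was lost with the replicate number as a block (adjusted p = 0.0566), with no filter on dim genes (0.0504), with median centring (0.0772) and quantile normalization (0.109), and without normoxic vehicle replicate 2 (0.17) or 3 (0.0755) or BB2-282 replicate 1 (0.234). TCA cycle genes were lower in 13 of 16 and higher in 1, the mitochondrial isocitrate dehydrogenase IDH2 at 0.75. IDH3A, a subunit of another isocitrate dehydrogenase, read 11.08, 11.05 and 11.12 in normoxia, 9.09, 9.45 and 8.68 in hypoxic vehicle and 8.34, 8.49 and 8.43 with BB2-282. Heat shock proteins were lower in 10 of 16 and higher in 2, with HSP90AA1 at −2.76. ER chaperones were lower in 12 of 19 and higher in 4, with PDIA4 at −1.62 and ERN1 at 1.03.

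Lipid synthesis genes stayed below normoxia, and some came partly back. Of 16 cholesterol genes, 13 were lower than normoxia and 2 higher, and 8 of the 16 were higher than in the hypoxic vehicle against 1 lower. Over all genes tested, 5.65% were higher and 7.94% lower than in the hypoxic vehicle. DHCR7, which makes the last step to cholesterol, read 10.81, 10.96 and 11.03 in normoxia, 8.80, 8.38 and 8.55 in hypoxic vehicle and 9.41, 9.43 and 9.53 with BB2-282. It lay between the other groups without overlap, at −1.48 ± 0.12 from normoxia and 0.88 ± 0.12 above the hypoxic vehicle (adjusted p = 8.12e-05). SREBF2, the transcription factor of this pathway, was higher than normoxia by 0.71. Of 17 fatty acid genes, 10 were lower and 1 higher, and 5 were above the hypoxic vehicle against 0 below. FADS2, a desaturase, read 11.87, 12.16 and 12.14 in normoxia, 9.63, 9.49 and 9.69 in hypoxic vehicle and 10.41, 10.43 and 10.64 with BB2-282, again between the groups. ELOVL6, an elongase, stayed at −2.86.

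**Figure D3:**
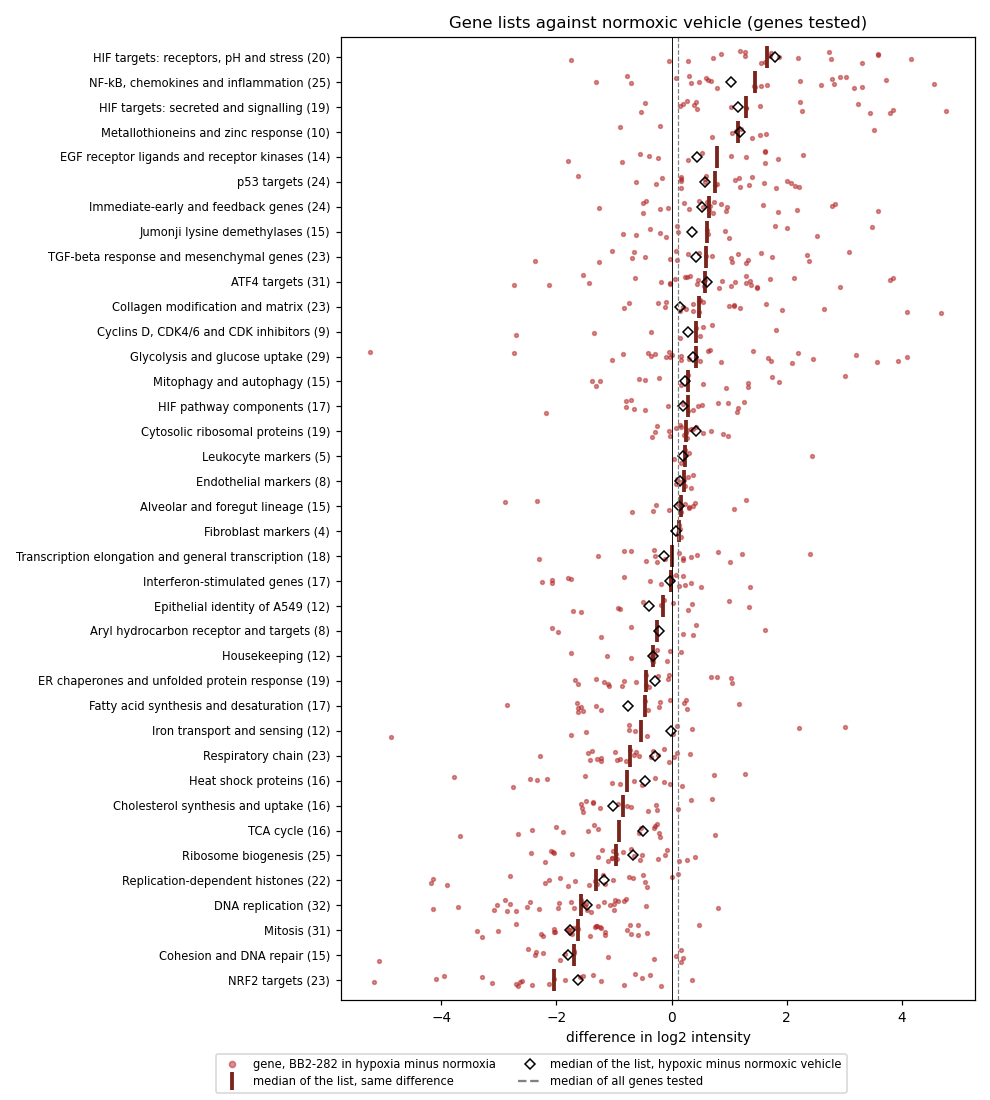
Difference in log2 intensity from normoxic vehicle (horizontal axis) for each tested gene of 38 lists with BB2-282 (points), the list's median with BB2-282 (bar) and in hypoxic vehicle (diamond); the dashed line is the median of all genes tested, 0.11. The respiratory chain median lies at −0.72 with BB2-282 and −0.29 in hypoxic vehicle, and the NF-kB median at 1.45 and 1.03.

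Only 5 genes that hypoxia had changed at least 2-fold could be placed at the normoxic level. A gene was so placed when it was called against the hypoxic vehicle in the direction of normoxia, was not called against normoxia, and had a 95% interval inside 0.5 log2 units of normoxia. Among these 5, hypoxia had lowered HMOX1 and SPARC and raised MIR15A, CCDC59 and KRT10-AS1. A further 10 genes raised at least 2-fold by hypoxia were not called against normoxia and had an interval too wide to place them. The count of genes at the normoxic level was 2 to 11 when single arrays were left out. It was 3 without normoxic vehicle replicate 3, 2 without BB2-282 replicate 1 and 11 without hypoxic vehicle replicate 3, and it was 0 with a margin of 0.3.

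HMOX1 encodes heme oxygenase, which breaks heme into biliverdin, iron and carbon monoxide, and is a target of NRF2. It read 10.63, 10.44 and 10.57 in normoxia, 9.33, 9.37 and 9.16 in hypoxic vehicle and 10.45, 10.30 and 10.31 with BB2-282. Normoxic and BB2-282 arrays overlapped, and every hypoxic vehicle array lay below both. The difference from normoxia was −0.19 ± 0.11 (adjusted p = 0.115; 95% interval −0.42 to 0.03), and the rise over the hypoxic vehicle was 1.07 ± 0.11 (adjusted p = 3.66e-06). It was the one member of the 23 NRF2 targets not called against normoxia, while 20 of the others stayed below normoxia from a hypoxic fall. SPARC, a matrix glycoprotein, read 6.96, 7.08 and 6.88 in normoxia, 5.94, 5.67 and 5.69 in hypoxic vehicle and 6.77, 6.64 and 6.79 with BB2-282. Its BB2-282 arrays lay just below the normoxic ones without overlap, at −0.24 ± 0.11 (adjusted p = 0.0601). It was called lower than normoxia with median centring (adjusted p = 0.0317) and when only the normoxic and BB2-282 groups were fitted (adjusted p = 0.0327).

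MIR15A is a microRNA gene on chromosome 13 whose products repress genes of the cell cycle and of survival. Its mature RNAs on GRCh38.p14 lie on the minus strand, miR-15a-5p at chr13:50049167-50049188 and miR-15a-3p at chr13:50049130-50049151, shown with the seed (bases 2 to 8) in capitals because the seed pairs with target RNAs.
hsa-miR-15a-5p: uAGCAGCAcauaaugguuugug
hsa-miR-15a-3p: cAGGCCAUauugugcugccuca
The MIR15A probe set read 5.98, 5.57 and 5.48 in normoxia, 7.04, 7.14 and 7.30 in hypoxic vehicle and 5.53, 5.75 and 5.66 with BB2-282. The hypoxic vehicle arrays stood alone, and the normoxic and BB2-282 arrays overlapped. The difference from normoxia was −0.03 ± 0.15 (adjusted p = 0.878; 95% interval −0.34 to 0.29), and the fall from the hypoxic vehicle was −1.51 ± 0.15 (adjusted p = 3.67e-06). DLEU2, the long noncoding host gene of this microRNA, did not follow it, and was looked at after its values were seen. DLEU2 read 7.42, 7.39 and 7.04 in normoxia, 5.62, 5.07 and 5.33 in hypoxic vehicle and 4.57, 4.67 and 4.29 with BB2-282, where its mean was at or below the 25th percentile of probe sets, so its difference from normoxia, counted from there, was −2.56 or lower. Labelling took total RNA from a column kit, and the probes cannot separate the mature microRNA from its precursor or host transcript.

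CCDC59, which encodes a nuclear protein, read 7.27, 7.70 and 7.35 in normoxia, 8.82, 8.53 and 8.41 in hypoxic vehicle and 7.52, 7.54 and 7.68 with BB2-282, 0.14 from normoxia (95% interval −0.18 to 0.46). KRT10-AS1, an antisense transcript of a keratin gene, read 6.51, 6.68 and 6.41 in normoxia, 7.76, 7.55 and 7.34 in hypoxic vehicle and 6.36, 6.66 and 6.66 with BB2-282, 0.03 from normoxia (95% interval −0.34 to 0.39). For both genes the BB2-282 arrays overlapped the normoxic ones and lay below every hypoxic vehicle array. KRT10-AS1 was no longer placed at the normoxic level with median centring or quantile normalization, nor without normoxic vehicle replicate 2 or 3 or BB2-282 replicate 1. CCDC59 was not so placed without normoxic vehicle replicate 2 or BB2-282 replicate 1 or 2. SPARC was not so placed with median centring, nor without normoxic vehicle replicate 1 or 3 or BB2-282 replicate 1 or 3.

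A small group of 26 genes lay beyond normoxia, 10 above it after a fall in hypoxia alone and 16 below it after a rise. Their distances from normoxia were modest. CCL2, the monocyte chemokine, read 9.93, 9.66 and 9.72 in normoxia, 9.39, 8.82 and 9.53 in hypoxic vehicle and 10.32, 10.40 and 10.65 with BB2-282. Its BB2-282 arrays were above all others, at 0.69 ± 0.15 over normoxia (1.61-fold, adjusted p = 0.000657). TIMP2, an inhibitor of matrix metalloproteases, read 9.48, 9.74 and 9.66 in normoxia, 9.19, 9.30 and 9.32 in hypoxic vehicle and 10.11, 10.05 and 10.17 with BB2-282, higher than normoxia by 0.48. The Notch ligand JAG1 was higher by 0.47, the heparan sulfate enzyme NDST1 by 0.49, CACNG6 by 0.45 and complement C3 by 0.41. The C3 call was lost with median centring (adjusted p = 0.0703), without normoxic vehicle replicate 1 (0.0912) and without BB2-282 replicate 2 (0.0549) or 3 (0.0944). On the other side, POLR2H, a subunit shared by the nuclear RNA polymerases, read 10.83, 10.82 and 10.53 in normoxia, averaged 11.12 ± 0.11 (SD, n = 3) in hypoxic vehicle and read 10.02, 9.80 and 10.10 with BB2-282. The POLR2H groups were apart, at −0.75 ± 0.13 from normoxia (1.69-fold lower, adjusted p = 7.19e-05). DLEU1 was at −0.63, ULK4 at −0.54, COMMD6 at −0.49 and C12orf57 at −0.49.

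FOS, a subunit of the AP-1 transcription factor, was beyond normoxia too, and its call also rested on single arrays. It read 8.22, 8.23 and 7.49 in normoxia, 8.74, 8.78 and 8.63 in hypoxic vehicle and 7.58, 7.46 and 7.42 with BB2-282. The normoxic group overlapped BB2-282 through its replicate 3. The difference was −0.50 ± 0.16 (adjusted p = 0.0135), with an adjusted p of 0.0746 without normoxic vehicle replicate 1 and 0.0838 without replicate 2. Without single arrays the 26 genes became 11 to 44, with 15, 11 and 14 when normoxic replicate 1, 2 or 3 was left out, 13 without hypoxic vehicle replicate 1 and 44 without its replicate 3. It was 36 without BB2-162 replicate 1, the array that stood apart, and 41 when only the 3 groups concerned were fitted.

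A larger group of 404 genes was off normoxia with BB2-282 and not in hypoxia alone, 186 above and 218 below. These were genes not called in hypoxia alone with an interval inside 0.5 log2 units of normoxia, and called with BB2-282 in the same direction against both vehicle groups. The rule did not use the other 2 compounds. Of the 404 genes, 89 were called against normoxia in the same direction with BB2-125 and 163 with BB2-162, 180 with at least 1 of them, while 88 and 53 were called in the opposite direction and 125 were called with neither. Over all 16005 genes tested, 5041 were higher and 4875 lower than normoxia with BB2-125 (62.0% called). With BB2-162, 6785 were higher and 5511 lower (76.8% called). Against that background the same-direction counts do not stand out as agreement between the compounds. The comparisons with normoxia share the normoxic arrays. The count was 106 with a margin of 0.3. It was 197 without hypoxic vehicle replicate 1, 237 without its replicate 2 and 244 without BB2-282 replicate 2, within a range of 197 to 464. COL4A2, a collagen of basement membranes, read 7.22, 7.27 and 7.24 in normoxia, 7.27, 7.46 and 7.45 in hypoxic vehicle and 8.16, 8.30 and 8.52 with BB2-282. Its BB2-282 arrays were clear of the other 6, at 1.08 ± 0.11 over normoxia (2.12-fold, adjusted p = 6.27e-08). PDE11A, a phosphodiesterase of cyclic nucleotides, read 5.40, 5.19 and 5.41 in normoxia, 5.41, 5.42 and 5.41 in hypoxic vehicle and 6.73, 6.88 and 6.83 with BB2-282, higher by 1.48 ± 0.14 (2.79-fold, adjusted p = 3.58e-08). IGDCC4 was higher by 1.15 and ARHGAP31 by 1.08.

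NDUFA6, a subunit of respiratory complex I, was the most lowered of the 218. It read 10.78, 10.79 and 10.64 in normoxia, 10.56, 10.51 and 10.49 in hypoxic vehicle and 9.54, 9.38 and 9.42 with BB2-282, 2.45-fold below normoxia (−1.29 ± 0.10, adjusted p = 3.31e-09). MRPL53, a protein of the mitochondrial ribosome, was at −1.14, GLRX, glutaredoxin, at −1.03, the ribosome assembly kinase RIOK2 at −1.02 and SAR1B, a GTPase of protein export from the endoplasmic reticulum, at −1.02. Counted another way, 56 genes were at least 2-fold off normoxia with BB2-282 and not called in hypoxia alone, and 52 of them differed in the same direction from the hypoxic vehicle.

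Small noncoding RNA genes held several of the largest rises. These RNAs guide chemical marks on ribosomal and spliceosomal RNA (snoRNAs and Cajal body RNAs), build the spliceosome, or sit in vault particles. Of 54 H/ACA snoRNA genes tested, 49 were higher than normoxia and 0 lower, with a median of 1.42 with BB2-282 and 0.68 in hypoxia alone. Against the hypoxic vehicle 19 were higher and 1 lower. Over all genes tested, 33.4% were higher and 31.4% lower than normoxia, and 5.65% were higher and 7.94% lower than the hypoxic vehicle. Of 84 C/D snoRNA genes, 67 were higher and 1 lower, with a median of 1.11 against 1.13 in hypoxia alone, and 8 were above the hypoxic vehicle against 3 below. Of 11 spliceosomal RNA genes, 10 were higher and 0 lower, with a median of 1.54 against 0.45 in hypoxia alone. Cajal body RNA genes were higher in 14 of 16 and lower in 0, with a median of 1.57 against 1.37 in hypoxia alone. Of the 16, 3 were above the hypoxic vehicle and 1 below. MicroRNA genes were higher in 46 of 88 and lower in 0, with a median of 0.32, nearer to the 0.11 of all genes. Of these 88, 14 had a normoxic mean at or below the 25th percentile of probe sets.

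SNORA46 read 4.84, 4.78 and 4.86 in normoxia, 5.48, 5.56 and 5.72 in hypoxic vehicle and 9.93, 9.85 and 9.03 with BB2-282. Its BB2-282 arrays were far above the others, at 4.77 ± 0.29 over normoxia (27.4-fold, adjusted p = 8.73e-11) and 4.02 ± 0.29 over the hypoxic vehicle. SNORA65 read 6.78, 6.67 and 6.83 in normoxia, 7.34, 7.29 and 7.88 in hypoxic vehicle and 11.70, 11.67 and 10.92 with BB2-282. SCARNA4 read 4.50, 5.21 and 4.96 in normoxia, 5.66, 5.62 and 5.35 in hypoxic vehicle and 9.30, 9.32 and 9.47 with BB2-282. For SNORA65 the step in hypoxia alone was 0.74 and the further step 3.93, and for SCARNA4 they were 0.65 and 3.82. VTRNA1-1, a vault RNA, had the largest of the 12 rises named, 5.58 ± 0.47 (47.9-fold, adjusted p = 6.82e-09). It read 4.87, 5.26 and 4.56 in normoxia, 6.08, 5.11 and 5.49 in hypoxic vehicle and 10.37, 10.88 and 10.19 with BB2-282.

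RNU5D-1, a U5 spliceosomal RNA gene looked at after its values were seen, read 3.53, 4.30 and 4.06 in normoxia and 9.48, 9.89 and 8.15 with BB2-282. From the 25th percentile of the normoxic arrays its rise was at least 4.57. SNORA55 was higher than normoxia by 1.58 with BB2-282 and was not called in hypoxia alone (−0.02), and it was also higher with BB2-125 (0.53, adjusted p = 0.023) and BB2-162 (0.95, adjusted p = 0.000258). SNORA15 was higher with BB2-282 by at least 0.80 counted from the same percentile, and was called higher with both other compounds too. SNORD75 was the one C/D snoRNA that fell. It read 7.47, 7.84 and 7.15 in normoxia, 7.81, 7.38 and 7.52 in hypoxic vehicle and 6.32, 6.42 and 6.11 with BB2-282, at −1.20 ± 0.16 from normoxia (adjusted p = 3.67e-06). Copies of these small genes share sequence and many lie inside host introns, so the probes cannot tell the mature RNA from host or precursor RNA.

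**Figure D4:**
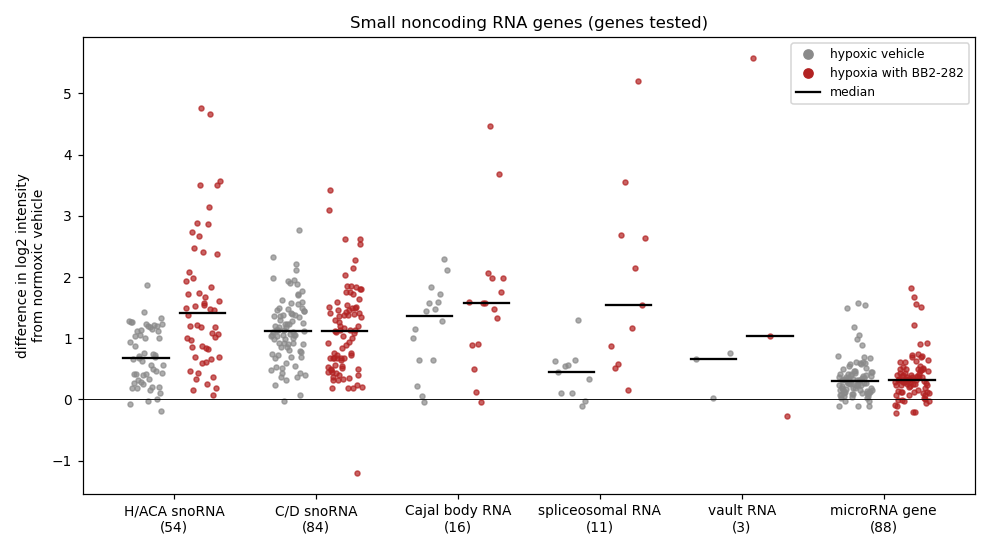
Difference in log2 intensity from normoxic vehicle (vertical axis) for each tested small noncoding RNA gene in hypoxic vehicle (grey) and with BB2-282 (red), with medians as black lines and the number of genes under each class. H/ACA snoRNA genes have medians of 0.68 and 1.42, C/D snoRNA genes 1.13 and 1.11, and microRNA genes 0.29 and 0.32.

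BB2-282 was set against the other 2 compounds at the same 10 µM and times, in 2 pairs, each adjusted over all genes tested. Against BB2-125, 5813 genes differed (36.3%), and against BB2-162, 5734 differed (35.8%). Against normoxia 62.0% of genes were called with BB2-125 and 76.8% with BB2-162. LOX differed in both pairs. Its mean was 4.67 above normoxia with BB2-282, 1.20 with BB2-125 and 0.85 with BB2-162, so BB2-282 was higher than BB2-125 by 3.46 ± 0.16 (adjusted p = 5.1e-11) and than BB2-162 by 3.82 ± 0.16 (adjusted p = 2.31e-11). EGFR, the epidermal growth factor receptor, read 8.36, 8.68 and 8.71 in normoxia and 9.98, 10.10 and 10.53 with BB2-282, and was 1.62 above normoxia. With BB2-125 and BB2-162 it was at −1.07 and −1.88, so the differences were 2.69 ± 0.17 and 3.50 ± 0.17 (adjusted p = 2.26e-09 and 1.22e-10). MET was at 0.29 with BB2-282 against −1.17 with BB2-125 and −0.92 with BB2-162, differences of 1.45 and 1.21 that were both called. EGLN3 stayed 1.15 above normoxia with BB2-282 and was not called against normoxia with BB2-125 (0.11, adjusted p = 0.436) or BB2-162 (−0.14, adjusted p = 0.309). The differences of BB2-282 from them were 1.04 and 1.28 (adjusted p = 2e-06 and 2.32e-07).

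VEGFA differed from BB2-125 and not detectably from BB2-162. It was 3.79 above normoxia with BB2-282, 2.78 with BB2-125 and 3.60 with BB2-162. The difference from BB2-125 was 1.01 ± 0.11 (adjusted p = 9.26e-07), and that from BB2-162 was 0.19 with a 95% interval of −0.04 to 0.42 (adjusted p = 0.195). CXCR4 gave the same order, 1.16 above BB2-125 (adjusted p = 1.84e-06) and 0.07 from BB2-162, with a 95% interval of −0.21 to 0.35. SLC40A1 was not called in either pair, at −0.04 from BB2-125 (95% interval −0.27 to 0.18) and 0.09 from BB2-162 (−0.13 to 0.32). JAG1 was 0.47 above normoxia with BB2-282, and −2.10 and −0.98 from it with BB2-125 and BB2-162, both differences from BB2-282 being called. For FGB the difference was −3.58 from BB2-125 and −2.09 from BB2-162 (adjusted p = 6.68e-11 and 3.56e-08). SNORD75 had opposite signs, −1.20 with BB2-282 against 2.55 with BB2-125 and 2.30 with BB2-162, differences of −3.76 and −3.50 (adjusted p = 3.8e-11 and 1.04e-10). HMOX1 was at the normoxic level with BB2-282 and at −1.02 and −1.80 with BB2-125 and BB2-162. Its differences were 0.82 and 1.60 (adjusted p = 5.9e-06 and 3.8e-09). MIR15A, also at the normoxic level with BB2-282, was not called against normoxia with BB2-162 (0.13, adjusted p = 0.436). With BB2-125 it was below normoxia (−0.48, adjusted p = 0.0101).

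**Figure D5:**
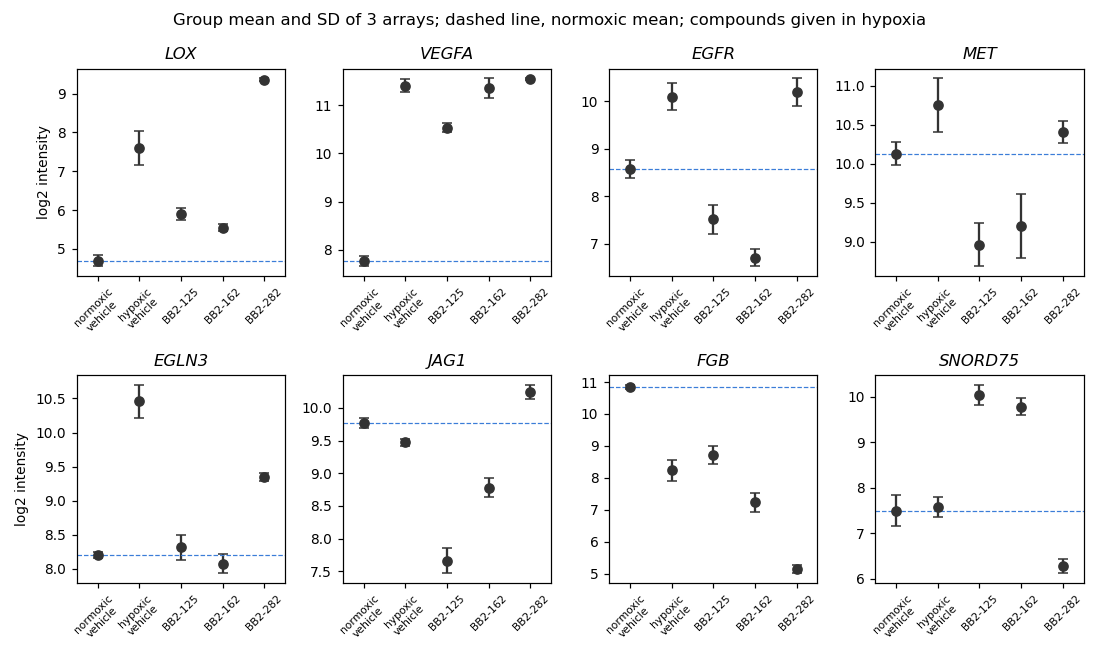
Mean log2 intensity with SD of 3 arrays (vertical axis, not starting at 0) of 8 genes in the 5 groups, with a dashed line at the normoxic mean. LOX, EGFR, MET and JAG1 are higher with BB2-282 than with BB2-125 or BB2-162, FGB and SNORD75 are lower, and VEGFA with BB2-282 lies 0.19 from BB2-162.

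Markers of the line and of other cell types were read beside these results. Of 12 epithelial genes, 4 were higher than normoxia and 5 lower, with the keratin KRT19 at 1.35 and the adhesion genes CDH1 and EPCAM at −1.72 and −1.57. CDH1 read 9.35, 9.69 and 9.57 in normoxia and 7.67, 7.88 and 7.91 with BB2-282. Of 15 alveolar and foregut lineage genes, 6 were higher and 5 lower, with GATA6 at 1.09 and SOX2 at −2.33. Of 4 fibroblast markers tested, 0 were called. Endothelial markers were higher in 4 of 8, with ESAM highest at 0.38, and 2 of the 8 were called under median centring or under quantile normalization. Of 5 leukocyte markers, 2 were higher, ITGAM by 0.31 and CD68 by 2.44. CD68, a lysosomal protein made by many cell types, read 8.96, 8.91 and 8.98 in normoxia and 11.39, 11.40 and 11.39 with BB2-282. Housekeeping genes were lower in 8 of 12 and higher in 0, with PPIA at −1.13 and TBP at −0.70, and their part in the other differences was not tested. Of 17 interferon-stimulated genes, 4 were higher and 6 lower, with IRF1 at 1.36 and OAS3 at −1.74. Of 18 genes of transcription elongation and general transcription, 6 were higher and 5 lower. HEXIM1, an inhibitor of the elongation kinase, read 9.69, 10.01 and 10.11 in normoxia and 7.68, 7.61 and 7.62 with BB2-282, 4.92-fold lower, while the elongation factor ELL2 was higher by 2.41.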

How the data were processed

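RNA of 15 A549 cultures, 5 groups of 3, was labelled with a whole-transcript kit and hybridised to Affymetrix arrays, per the labels' protocols. The deposited values are RMA intensities per probe set and array on a linear scale, with RMA named per the submitters' processing notes. RMA corrects background, normalizes between arrays and summarises probes, so a global shift in RNA would not show. The program used for it and its release, like the genome build, are not given in the sources used here.

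The log2 of the deposited intensity was taken. Of 28869 probe sets, the probe table listed 21062, of which 19310 had 1 gene symbol, 1752 had several and were not used, and 7807 were unlisted. Symbols were updated by Entrez ID, found for 19279, and 31 were kept as listed. The probe set with the highest mean stood for each of 18377 genes, 685 of which had several. Genes above their array's 25th percentile on at least 3 arrays were kept, which removed 2372 and left 16005. A group mean at or below that percentile is called dim, and its gene is given as a bound from the percentile.

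Tests used limma 3.58.1 (R 4.3.3). A single model with a mean for each group was fitted to all 15 arrays (10 residual and 7.96 prior degrees of freedom), with Benjamini-Hochberg adjustment within each comparison and a threshold of 0.05. Errors after ± are standard errors. The scripts were tested on simulated data. No 2 arrays were identical, with 0 such pairs.

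Gene lists, 38 in number, came from textbook knowledge and held 747 distinct genes, of which 680 were on the array, 14 were removed as dim and 666 were tested, 16 of them on more than 1 list. The named genes are the 12 largest rises and 12 largest falls with no overlap between groups and no dim mean, up to 8 each way at the normoxic level, 6 each way beyond it, 6 each way off it with the compound and not in hypoxia alone, up to 4 members of lowest p per list with up to 2 that oppose the list, and 13 genes fixed by name. The comparison, the members and the lists were chosen with earlier results of these data known. Promoter and microRNA sequences are from RefSeq. Alternatives tried were other scalings, filters, fits, a replicate block, a narrower margin and leaving out each array.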

Additional observations from a re-analysis of the deposited data

How the results depend on the processing

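Under the alternatives, 115 of 132 counts were within 1.5 times the reported ones. Of 3566 values of 239 named genes, 3524 kept their side of the threshold. Reversals were 0 among values called in the reported fit or in the alternative. The direction of values called in neither was not checked. When single arrays of the groups concerned were left out, genes called against normoxia were 8858 to 9956 and those changed at least 2-fold 3052 to 3242. Raised genes still above normoxia were then 2960 to 3752, and lowered genes still below it 3864 to 4273. The same gave 2 to 11 genes at the normoxic level, 11 to 44 beyond it, 197 to 464 off it with the compound and not in hypoxia alone, and 1219 to 2396 called against the hypoxic vehicle. Genes beyond normoxia were 41 when only the groups compared were fitted. With a margin of 0.3 the genes at the normoxic level were 0 and those off it with the compound and not in hypoxia alone were 106, since a narrower margin admits fewer genes. The replicate number was also fitted as a replicate block, which gave 10289 genes called against normoxia, 7 at the normoxic level and 28 beyond it. Same-number deviations correlated at 0.09 to 0.34 between BB2-282 and normoxic arrays, where 2 of 3 BB2-282 arrays matched their own number best, and at −0.31 to −0.04 between BB2-282 and hypoxic vehicle arrays, where 0 did. Not every pair was above 0.1, so the numbers were not taken as pairs. Median centring gave 9788 calls, 46.5% of them higher against 51.5% as reported, and quantile normalization 9785. Leaving out BB2-162 replicate 1, chosen after seeing the data, gave 10923. Beyond that, the cause was not tested. Signal near the 25th percentile limits the size of low readings, as for LOX, SNORA46 and VTRNA1-1 in normoxia and SLC40A1 and CDC6 with BB2-282.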
